A study of Mus musculus with 12 samples.

Results

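Gene expression in the hearts of mice given phosphatidylserine (PS) was compared with that in the hearts of mice given medium-chain triglycerides (MCT), the oily vehicle. The comparison takes the 3 heart arrays labelled PS and the 3 labelled control (MCT), 6 of the 12 arrays of the series; the other 6 are cerebrum. It covers every transcript cluster, the array's unit for a gene, that has 1 gene symbol: 21218 clusters of 18820 genes. Values are log2 intensities, so a difference of 1 is a doubling, and all differences are PS minus MCT.

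The mice model familial dysautonomia (FD), an inherited disease of autonomic and sensory neurons caused by missplicing of the Elongator subunit gene IKBKAP. All arrays, PS and MCT, carry the same strain and genotype labels: C57BL/6J with a humanized knock-in IKBKAP FDloxP/+. The PS mice received 200 mg/kg PS in 100 µl, and the MCT mice 100 µl MCT, by gavage every other day, beginning at 4 months of age and lasting 3 months. The labels conflict in places, since one describes FD mice throughout and another speaks of FD and wild-type mice, and the source names give the dose per day. The arrays are labelled as biological replicates, and whether each is 1 animal or a pool is not stated. The series asks whether oral PS changes gene expression in these mice.

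Phosphatidylserine is a phospholipid that healthy cells keep on the inner side of the plasma membrane, where flippases hold it and scramblases can expose it to receptors on phagocytes. In the heart, as in other organs, adrenal glucocorticoids act through a receptor that chaperones and the co-chaperone FKBP5 keep in the cytosol until hormone binds. The receptor then enters the nucleus, binds palindromic DNA elements and switches on genes that include Fkbp5 itself, which dampens further signalling.

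The samples had the markers of ventricular heart. Myl2, the ventricular myosin light chain, was 11.84 to 11.90 in PS hearts and 11.98 to 12.05 in MCT hearts, while the neuronal gene Snap25 did not exceed 5.08 in any heart. The atrial light chain Myl7 was uneven between arrays, at 6.80 in PS 3 and 8.53 in MCT 3, against 4.16 to 5.08 in the other 4. The fat cell hormone gene Adipoq was 4.34 to 4.66 in PS hearts, and 6.46, 3.97 and 4.63 in MCT hearts. PS 2 stood apart for genes of fibroblasts and matrix, described below. MCT 3 correlated 0.979 with MCT 1 and 0.983 with MCT 2 across all transcript clusters, which are not independent, and 0.99 with PS 1. Medians of the 6 arrays were 4.89 to 4.94, and the number of arrays limits the precision.

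All PS hearts had one pattern of sex-linked transcripts and all MCT hearts the other. Xist, the RNA that coats the inactive X chromosome of females, was 9.09, 9.13 and 8.92 in PS hearts, against 3.40, 4.03 and 3.66 in MCT hearts. The Y-linked translation factor gene Eif2s3y was 3.78, 3.49 and 3.78 in PS hearts and 8.58, 8.67 and 8.65 in MCT hearts. The Y-linked histone demethylase genes Uty and Kdm5d were likewise low in every PS heart, at 3.12 to 3.29 and 3.84 to 4.19, and high in every MCT heart, at 7.43 to 7.83 and 5.92 to 6.15. In limma, Xist rose by 5.35 (adjusted p = 6.03e-06), Eif2s3y fell by 4.95 (2.79e-06), Uty fell by 4.48 (6.03e-06) and Kdm5d fell by 2.02 (0.00134); low levels near background make these sizes approximate. The animals' sex is not in the labels used here, and the treatment and this pattern cannot be told apart in any difference between hearts below. In cerebrum the split was not complete. Xist was 9.55, 3.32 and 9.86 in PS cerebra, against 3.77, 3.34 and 3.62 in MCT cerebra, and Eif2s3y was 3.41, 7.25 and 3.42 in PS cerebra, against 7.52 or more in each MCT cerebrum. Cerebrum PS 2 thus had the pattern of the MCT arrays, whereas heart PS 2 had that of the other PS hearts.

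X-linked genes known to escape inactivation in mouse followed the same split in part. Of the 8 tested, Xist among them, all 8 had a higher PS mean and 2 rose. Ddx3x, an RNA helicase gene, rose by 0.95 ± 0.12 (SE, limma adjusted p = 0.0337), with 9.93 to 10.06 in PS hearts and 8.91 to 9.21 in MCT hearts. The demethylase genes Kdm5c and Kdm6a and the translation factor gene Eif2s3x differed by 1.07, 0.98 and 0.62 without overlap between the groups, short of the threshold (adjusted p = 0.102, 0.082 and 0.119). Genes on the X chromosome as a whole were close to the rest: 62.3% of 324 had a higher PS mean, with a median difference of 0.10, against 59.5% of 10823 autosomal genes with a median of 0.07. The test called 3 genes on X, which were Xist, Ddx3x and the glucocorticoid-induced Tsc22d3, and 24 on autosomes.

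**Figure D1:**
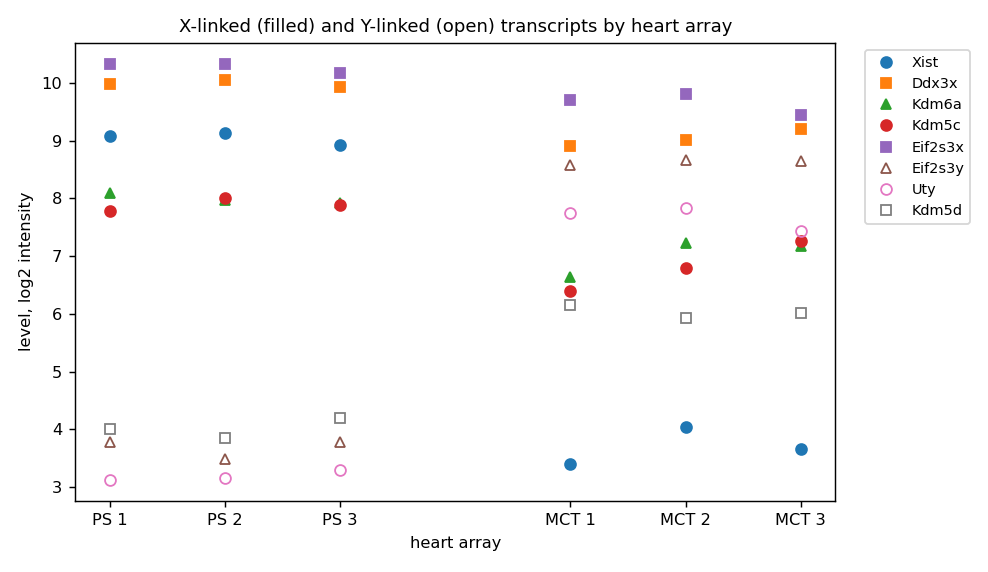
Level (log2 intensity, vertical axis) of 5 X-linked genes (filled symbols) and 3 Y-linked genes (open symbols) in each heart array (horizontal axis, PS arrays left of MCT arrays). Xist is near 9 in the 3 PS hearts and at 3.40 to 4.03 in the 3 MCT hearts, and Eif2s3y, Uty and Kdm5d run the opposite way.

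Besides the Y-linked genes, Xist and Ddx3x, the hearts of PS mice had higher levels of the glucocorticoid-induced genes Fkbp5, on an autosome, and Tsc22d3, on X, and of genes that include Fam107a, Slc10a6, Spock2, Igfbp3 and Baiap2, and lower levels of the glucocorticoid-activating enzyme gene Hsd11b1, of a few membrane protein genes and of 3 small RNAs. In limma 3.58.1, 42 of 12736 tested transcript clusters (0.33%) passed an adjusted p of 0.05, 20 higher (0.157%) and 22 lower (0.173%) with PS. They belong to 30 genes, of which 18 rose and 12 fell. Small RNAs made up 13 of the 22 lower clusters, and 6 of the 30 genes lie on X or Y. An unadjusted p under 0.05 was reached by 3015 clusters, and by 2621 of 11151 genes with 1 cluster per gene. With 1 cluster per gene, all 3 PS hearts lay above all 3 MCT hearts for 18.1% of 11151 genes and below them for 10.1%, and 59.5% of genes had a positive difference and 40% a negative one, with a median of 0.07 over all genes. Counts for gene groups below are to be read against these shares.

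The number of calls rested on single arrays. It was 7 without PS 1, 12 without PS 2, 6 without PS 3, 11 without MCT 1 and 4 without MCT 2, but 3416 without MCT 3 and 1176 without PS 3 and MCT 3 together, an alternative chosen after seeing the data. Fkbp5, Xist, Eif2s3y and Uty passed in all 6 of the fits that leave out 1 array, and Kdm5d in the 3 in which it was tested. Igfbp3 passed in 4 and Baiap2 in 3, while B3galt2, Ifi207, Map3k6 and Slc10a6 passed in 2. The other genes named as changed passed only without MCT 3, apart from some clusters of the small RNA Rnu2-10, which passed in up to 3. No called gene changed direction in any of these fits. Without PS 3 and MCT 3 together, the arrays high in Myl7, all 42 clusters passed again. That fit called 1176 clusters, and its arrays are among the 6 that gave the 42, so it is no separate check of them.

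**Figure D2:**
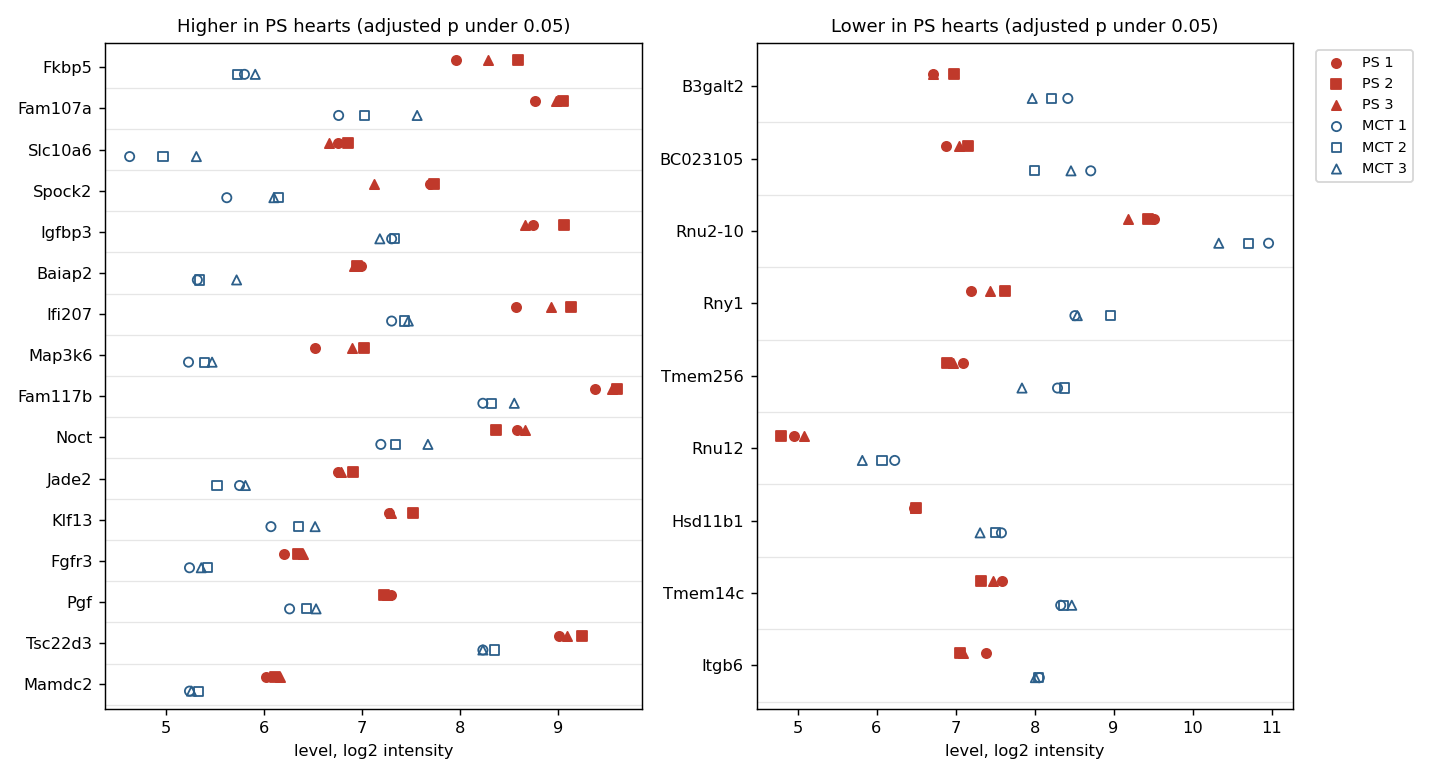
Levels (log2 intensity, horizontal axis) of the genes past an adjusted p of 0.05 outside Xist, Ddx3x and the Y chromosome, with PS arrays as filled symbols above the open MCT symbols of the same gene. For each gene the 3 PS hearts lie on one side of all 3 MCT hearts; Fkbp5, at 7.96 to 8.59 in PS hearts and 5.73 to 5.91 in MCT hearts, has the widest separation.

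Nearly all glucocorticoid-induced genes had a higher mean in PS hearts. Fkbp5, the co-chaperone that restrains the glucocorticoid receptor, was 7.96, 8.59 and 8.28 in PS hearts, against 5.80, 5.73 and 5.91 in MCT hearts. Every PS heart exceeded every MCT heart. The difference was 2.46 ± 0.17 (SE), a 5.52-fold higher level (adjusted p = 0.00137), and it ran between 2.31 and 2.62 when single arrays were left out. Tsc22d3, an X-linked gene that encodes the glucocorticoid-induced leucine zipper protein, had 9.01, 9.24 and 9.09 in PS hearts and 8.23, 8.35 and 8.23 in MCT hearts. Its groups did not overlap, and it rose by 0.84 ± 0.12 (SE, adjusted p = 0.0337).

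Of the 20 tested genes of the glucocorticoid-induced list, 19 had a higher PS mean, 16 had all PS hearts above all MCT hearts (background 18.1%) and 2 rose, Fkbp5 and Tsc22d3 (background 0.157%). The list's median difference was 0.65, against 0.07 over all genes, and it stayed between 0.59 and 0.76 with any 1 array left out. Zbtb16, a zinc finger transcription factor, was 9.82, 9.92 and 10.15 in PS hearts and 7.46, 7.90 and 8.88 in MCT hearts. Its groups were apart, but MCT 3 lay well above the other MCT hearts, and the difference of 1.88 did not pass (adjusted p = 0.0806). The metallothionein genes Mt2 (1.29) and Mt1 (0.59), the stress-induced mTOR inhibitor gene Ddit4 (1.27), the iron-siderophore binding protein gene Lcn2 (1.23), the cell cycle inhibitor gene Cdkn1a (0.94), the clock gene Per1 (0.99), the EGF receptor inhibitor gene Errfi1 (0.78) and the kinase gene Sgk1 (0.67) were also separated between the groups and short of the threshold. Angptl4, a lipoprotein lipase inhibitor gene that fatty acids also induce, ran the other way at −0.55, with 4.59, 6.20 and 5.45 in PS hearts and 6.68, 6.52 and 4.68 in MCT hearts, which overlapped.

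**Figure D3:**
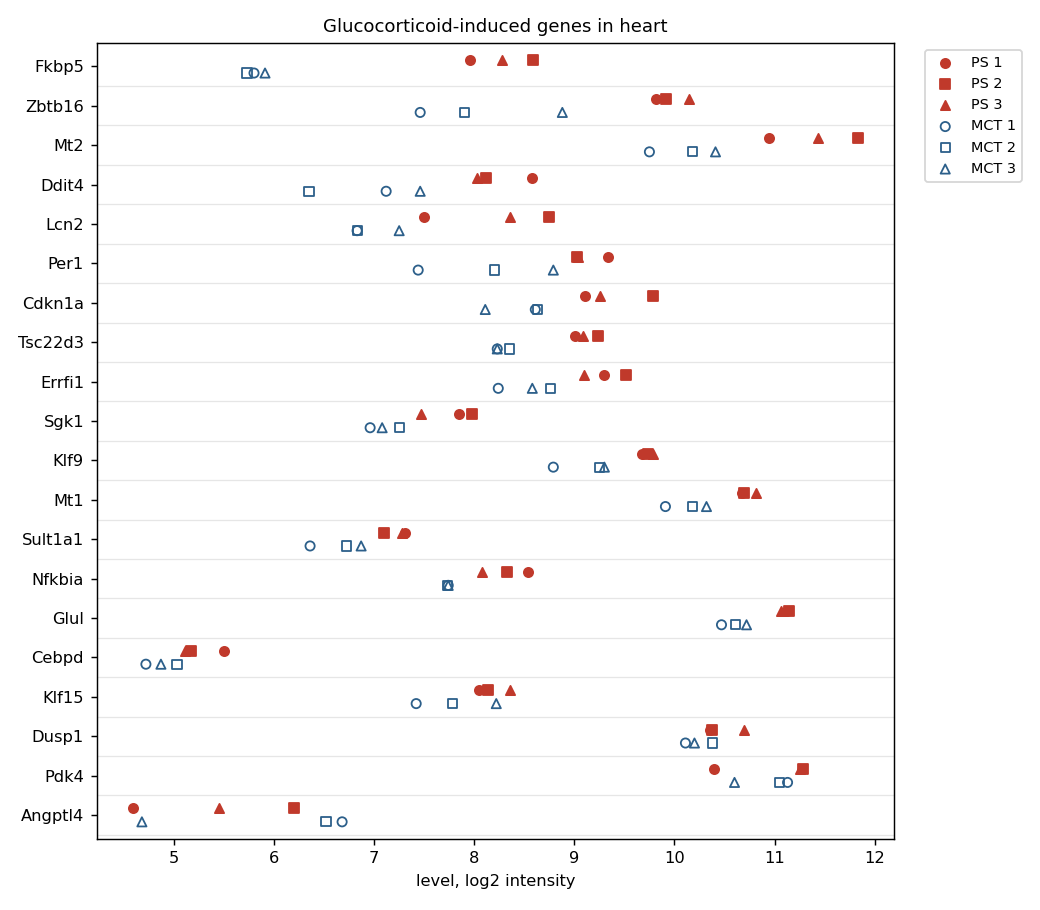
Levels (log2 intensity, horizontal axis) of the 20 tested glucocorticoid-induced genes in each heart, ordered by their difference, with PS arrays as filled symbols above the open MCT symbols. PS and MCT symbols are apart for 16 genes, and MCT 3 is the MCT heart nearest to the PS hearts for Fkbp5, Zbtb16, Per1 and several others.

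The genes that supply or sense the hormone differed less, with 1 exception. Hsd11b1, the enzyme gene that regenerates active glucocorticoid within cells, was 6.48, 6.50 and 6.49 in PS hearts, against 7.58, 7.51 and 7.31 in MCT hearts. The PS hearts were nearly identical and all below the MCT hearts, and the gene fell by 0.98 ± 0.12 (SE, adjusted p = 0.0234). The glucocorticoid receptor gene Nr3c1 differed by −0.04 (95% interval −0.36 to 0.28) and the mineralocorticoid receptor gene Nr3c2 by 0.07. The other 9 tested members of this list did not pass, with the cytosolic chaperone gene Hsp90aa1 at 0.47, and the median of the 10 was 0.10.

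Promoters were searched for the palindrome to which the glucocorticoid receptor and its relatives bind, in windows from 250 bases before to 50 after the transcription start, from RefSeq on GRCm38.p6. The motif searched has the core ACANNNTGT, preceded by G and any base and followed by any base and C. It reads the same on both strands and was chosen after the differences were known. It was present in 156 of 32851 windows (0.475%) and in 35 of the 8944 tested genes with a window (0.391%). Of the 18 genes that rose, 16 had a window and 3 of these held the motif: Fam107a, Map3k6 and Slc10a6. None of the 7 genes that fell and had a window held it. Of the glucocorticoid-induced list, 18 genes had a window and Mt1 and Sgk1 held it. The full consensus palindrome of the glucocorticoid response element, which adds fixed bases at both ends of this core, was in 3 of all windows, 1 of them that of Sgk1. Windows of the 3 genes that rose and of Mt1 and Sgk1 follow because they hold the motif; capitals mark the match, and each is written 5′ to 3′ on the gene's strand. They lie at chr4:133240568-133240867 (plus strand) for Map3k6, chr5:103629354-103629653 (minus) for Slc10a6, chr14:8309730-8310029 (minus) for Fam107a, which has a pair of windows with the match, chr8:94178839-94179138 (plus) for Mt1 and chr10:21993640-21993939 (plus) for Sgk1, which has several starts.
Map3k6: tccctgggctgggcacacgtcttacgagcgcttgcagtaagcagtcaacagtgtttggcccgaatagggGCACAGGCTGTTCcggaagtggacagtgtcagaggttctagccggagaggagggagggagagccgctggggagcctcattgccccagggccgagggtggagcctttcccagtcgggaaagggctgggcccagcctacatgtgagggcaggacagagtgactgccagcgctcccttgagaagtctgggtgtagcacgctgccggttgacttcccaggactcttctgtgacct
Slc10a6: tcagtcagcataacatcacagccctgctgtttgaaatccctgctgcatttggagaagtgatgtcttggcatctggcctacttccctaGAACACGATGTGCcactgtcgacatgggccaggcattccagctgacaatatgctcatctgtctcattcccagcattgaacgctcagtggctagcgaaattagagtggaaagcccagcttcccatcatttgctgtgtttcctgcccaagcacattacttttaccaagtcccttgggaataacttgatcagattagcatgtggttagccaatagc
Fam107a: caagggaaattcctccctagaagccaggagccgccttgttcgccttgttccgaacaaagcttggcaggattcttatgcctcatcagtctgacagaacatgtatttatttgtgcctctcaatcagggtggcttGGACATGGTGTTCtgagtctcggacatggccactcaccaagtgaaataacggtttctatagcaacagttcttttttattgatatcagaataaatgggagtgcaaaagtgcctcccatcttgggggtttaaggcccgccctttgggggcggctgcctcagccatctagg
Mt1: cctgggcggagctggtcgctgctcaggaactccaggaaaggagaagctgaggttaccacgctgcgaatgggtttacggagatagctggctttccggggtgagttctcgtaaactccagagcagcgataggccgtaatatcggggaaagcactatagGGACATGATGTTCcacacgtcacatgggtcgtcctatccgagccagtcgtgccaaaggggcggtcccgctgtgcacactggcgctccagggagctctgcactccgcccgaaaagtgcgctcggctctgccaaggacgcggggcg
Sgk1: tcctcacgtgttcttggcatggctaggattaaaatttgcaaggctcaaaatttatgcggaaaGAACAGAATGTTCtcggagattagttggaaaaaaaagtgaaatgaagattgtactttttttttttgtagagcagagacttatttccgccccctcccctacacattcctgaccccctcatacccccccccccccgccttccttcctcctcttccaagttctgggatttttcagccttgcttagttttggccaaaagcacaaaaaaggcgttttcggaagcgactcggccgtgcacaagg
A match is a run of letters and does not show binding, and its absence, as in the Fkbp5 and Tsc22d3 windows, says only that these letters are not in that window.

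In the 3 genes that rose and hold a match, the groups did not overlap, as in every other gene that rose. Slc10a6, a carrier of sulfated steroids, was 6.75, 6.86 and 6.66 in PS hearts and 4.63, 4.97 and 5.31 in MCT hearts. It rose by 1.79 ± 0.18 (SE, adjusted p = 0.0103), and its MCT levels lie around the low-value filter of 4.935, which makes the size approximate. Fam107a, a stress-responsive actin-binding protein gene, was 8.76, 9.05 and 8.98 in PS hearts and 6.76, 7.02 and 7.56 in MCT hearts, a rise of 1.82 ± 0.21 (SE, adjusted p = 0.0171). Map3k6, a stress-activated kinase gene, was 6.52, 7.02 and 6.90 in PS hearts and 5.23, 5.39 and 5.47 in MCT hearts, a rise of 1.45 ± 0.16 (SE, adjusted p = 0.0144).

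Clock genes were uneven. Per2, a repressor of the circadian clock, was 7.04, 6.86 and 7.06 in PS hearts and 5.47, 5.79 and 6.31 in MCT hearts, a difference of 1.13 (adjusted p = 0.0943). Bhlhe40 (0.72), a clock repressor gene, and Per1 were likewise separated, whereas Arntl, the activator of the clock, was −0.73 with overlapping groups. Of 16 tested clock genes 0 passed in limma (5 at an unadjusted p under 0.05), 3 had all PS hearts above all MCT hearts (background 18.1%), and the median of 0.46 was 0.20 without MCT 1. The time of day of sampling is not given in the labels, and its part in the result was not tested.

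Among Kruppel-like factors, zinc finger regulators of metabolism and growth, Klf13 rose. It was 7.27, 7.52 and 7.29 in PS hearts and 6.07, 6.35 and 6.52 in MCT hearts, a difference of 1.05 ± 0.15 (SE, adjusted p = 0.038), and the groups were apart. Klf4 (0.74), Klf7 (0.68), Klf9 (0.62) and Klf3 (0.57) were separated between the groups and did not pass. Over the 12 tested factors the median was 0.38. Noct, a rhythmic NADP(H) phosphatase gene of metabolism, rose by 1.13 ± 0.16 (SE, adjusted p = 0.0337), with 8.36 to 8.66 in PS hearts and 7.19 to 7.67 in MCT hearts.

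Several secreted and growth factor genes rose. Igfbp3, the main carrier of insulin-like growth factors, was 8.74, 9.06 and 8.66 in PS hearts, against 7.30, 7.33 and 7.18 in MCT hearts. The gap between the groups was wide relative to either group's spread, and the rise was 1.55 ± 0.14 (SE, adjusted p = 0.00843). Fgfr3, a fibroblast growth factor receptor, was 6.20, 6.35 and 6.40 in PS hearts and 5.24, 5.42 and 5.36 in MCT hearts, a rise of 0.98 ± 0.12 (SE, adjusted p = 0.0234). Pgf, the placental growth factor that acts on vessels, was 7.29, 7.22 and 7.25 in PS hearts and 6.26, 6.43 and 6.53 in MCT hearts, a rise of 0.85 ± 0.12 (SE, adjusted p = 0.0337). Both were separated, and the PS hearts were tightly grouped for Pgf. The matrix proteoglycan gene Spock2 was 7.69, 7.73 and 7.12 in PS hearts and 5.62, 6.15 and 6.10 in MCT hearts, a rise of 1.56 ± 0.21 (SE, adjusted p = 0.0337). Mamdc2, another matrix proteoglycan gene, was 6.02 to 6.16 in PS hearts and 5.24 to 5.33 in MCT hearts, a rise of 0.82 ± 0.11 (SE, adjusted p = 0.0337).

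The families of these genes held no other calls. Of 11 tested genes of the insulin-like growth factor list, 10 had a higher PS mean, 5 were separated (background 18.1%) and Igfbp3 alone rose. Igfbp7 differed by 0.83, Igfbp4 by 0.60, the receptor gene Igf1r by 0.54 and the growth factor gene Igf2 by 0.54. The list's median of 0.53 was 0.31 without MCT 1 and 0.34 without PS 2. Of 8 tested fibroblast growth factor genes Fgfr3 rose, Fgfr1 differed by 0.76 without passing, and the median was 0.16.

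The remaining genes that rose were Baiap2, Ifi207, Fam117b and Jade2. Baiap2, an adaptor between small GTPases and actin, was 6.99, 6.95 and 6.92 in PS hearts and 5.32, 5.34 and 5.72 in MCT hearts. It rose by 1.49 ± 0.14 (SE, adjusted p = 0.00985), and the PS hearts were closer together than the MCT hearts. Ifi207, of the interferon-inducible Ifi200 family, was 8.57 to 9.13 in PS hearts and 7.30 to 7.47 in MCT hearts, a rise of 1.47 ± 0.16 (SE, adjusted p = 0.0144). Fam117b was 9.37 to 9.60 in PS hearts and 8.23 to 8.55 in MCT hearts, a rise of 1.14 ± 0.13 (SE, adjusted p = 0.0199). Jade2, a chromatin scaffold gene, was 6.75 to 6.91 in PS hearts and 5.52 to 5.81 in MCT hearts, a rise of 1.12 ± 0.13 (SE, adjusted p = 0.017). The Ras exchange factor gene Rasgef1b (1.30) and the retinol- and alcohol-oxidizing enzyme gene Adh1 (0.85) were next in order of p, both at an adjusted p of 0.0622.

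The genes that fell, outside Hsd11b1 and the Y chromosome, were few and of mixed function. B3galt2, a galactosyltransferase gene of glycan synthesis, was 6.72, 6.98 and 6.71 in PS hearts, against 8.42, 8.21 and 7.97 in MCT hearts. All PS hearts were lower, and it fell by 1.40 ± 0.15 (SE, adjusted p = 0.0144). The membrane protein gene Tmem256 was 6.89 to 7.10 in PS hearts and 7.84 to 8.38 in MCT hearts, and fell by 1.18 ± 0.16 (SE, adjusted p = 0.0337). Tmem14c, a mitochondrial carrier of heme precursors, was 7.32 to 7.59 in PS hearts and 8.33 to 8.47 in MCT hearts, and fell by 0.93 ± 0.12 (SE, adjusted p = 0.0337). Itgb6, the beta chain of an integrin that activates TGF-beta, was 7.05 to 7.38 in PS hearts and 8.01 to 8.06 in MCT hearts, and fell by 0.86 ± 0.13 (SE, adjusted p = 0.0437). The gene model BC023105 fell as well, by 1.36, and was named after its values were seen. Below the threshold, the genes next by p that were lower in every PS heart were Arhgap32 (−0.72, adjusted p = 0.0598), Vaultrc5 (−1.33, 0.0727), the protein acetyltransferase gene Naa20 (−0.77, 0.0727) and Lage3 (−0.91, 0.0757). Timm10 (−0.98) and Timm21 (−0.70), of mitochondrial protein import, and Cox19 (−0.86), of complex IV assembly, were also lower in every PS heart, with adjusted p between 0.0795 and 0.0806.

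Small RNAs accounted for the other 13 lower clusters. They are 11 clusters of Rnu2-10, copies of the U2 spliceosomal RNA, with 1 each of Rnu12, the U12 spliceosomal RNA, and Rny1, a Y RNA; these were named after their values were seen. The Rnu2-10 clusters are near-identical copies with only 6 distinct sets of values, so they are not separate genes in this measurement, and their differences ran from −1.62 to −1.24. Rnu12 was 4.96, 4.79 and 5.08 in PS hearts and 6.23, 6.07 and 5.82 in MCT hearts, and it fell by 1.10. Its PS levels lie around the low-value filter of 4.935, which makes the size approximate. Rny1 was 7.20, 7.63 and 7.44 in PS hearts and 8.51, 8.96 and 8.54 in MCT hearts, and it fell by 1.25. No PS heart reached the level of an MCT heart for either Rnu12 or Rny1. How evenly small RNAs were recovered in the RNA preparations of the hearts was not tested.

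Most genes of vessel cells had a higher PS mean, with no single gene past the threshold. Of 20 tested endothelial genes, 17 had a higher PS mean, 13 had all PS hearts above all MCT hearts (background 18.1%) and 0 passed in limma (12 at an unadjusted p under 0.05), with a median of 0.51 (0.42 to 0.64 with any 1 array left out). Pecam1, an adhesion molecule gene of endothelial junctions, was 9.35, 9.55 and 9.36 in PS hearts and 8.67, 8.87 and 8.97 in MCT hearts, and differed by 0.58 (adjusted p = 0.119). Vwf, the clotting factor of vessel walls, differed by 0.92 and the endothelial transcription factor gene Sox17 by 0.75. Cldn5, the tight junction claudin of endothelium, did not share the direction, at −0.28 with overlapping groups. Of 15 tested smooth muscle and pericyte genes, 13 had a higher PS mean and 9 were separated (background 18.1%). Their median was 0.48, or 0.29 without MCT 1. The calponin gene Cnn1 differed by 1.22, the smooth muscle myosin gene Myh11 by 0.98 and the mural receptor gene Notch3 by 1.01. In whole heart tissue, more or fewer cells of a type and more or less RNA per cell cannot be told apart. Of 19 genes of angiogenic signalling 16 had a higher PS mean, with the Notch ligand gene Jag1 at 0.88 and the apelin receptor gene Aplnr at −0.73, and the median was 0.31.

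Fibroblast and matrix genes were high in 1 PS heart. Postn, a matrix protein gene of activated fibroblasts, measured 7.02, 10.41 and 7.18 in PS hearts, against 6.68, 7.18 and 6.62 in MCT hearts. PS 2 alone was high, and PS 1 and PS 3 were within or next to the MCT range. Relative to the MCT mean, the 20 genes had a median of 0.11 for PS 1, 1.63 for PS 2 and 0.16 for PS 3. All 20 had a higher PS mean and 0 passed in limma (2 at an unadjusted p under 0.05), and the list's median of 0.57 was 0.11 without PS 2. The mesothelial gene Upk1b was also high in PS 2, at 7.36, against 3.97 and 5.07 in the other PS hearts and 5.13 to 5.21 in MCT hearts. Its part in the matrix values was not tested.

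Genes of the working heart muscle showed small differences. Of 19 tested ventricular sarcomere genes 14 had a higher PS mean and 7 were separated upward (background 18.1%), with a median of 0.10. Myl9, a regulatory light chain that is more abundant in smooth muscle, differed most, by 1.02. Atp2a2, the calcium pump of the sarcoplasmic reticulum, was 12.50, 12.48 and 12.56 in PS hearts and 12.26, 12.30 and 12.46 in MCT hearts, a difference of 0.17. Over the 16 calcium cycling genes the median was 0.07, and −0.02 after centring the arrays on their medians. The sodium channel subunit gene Scn4b was −0.62, with all PS hearts below all MCT hearts. The stress gene Nppb, the precursor of brain natriuretic peptide, was 9.02, 10.67 and 8.92 in PS hearts and 10.94, 11.02 and 9.80 in MCT hearts; the groups overlapped and the difference of −1.05 did not pass (adjusted p = 0.241). The 15 stress response genes were split evenly, 7 to 7 with 1 unchanged in mean, with a median of 0.00. Intercalated disc genes had 13 of 14 with a higher PS mean, led by the vinculin gene Vcl at 0.79, and a median of 0.24. Of them 4 were separated (background 18.1%). Their median relative to the MCT mean was 0.28, 0.28 and 0.19 for PS 1, PS 2 and PS 3. It was −0.25, −0.02 and 0.33 for MCT 1, MCT 2 and MCT 3, so MCT 3 lay above every PS heart.

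Most genes of the respiratory chain and of ribosomes had a lower PS mean. Of 66 tested cytosolic ribosomal protein genes 63 had a lower PS mean, 34 had all PS hearts below all MCT hearts (background 10.1%) and 0 passed in limma (37 at an unadjusted p under 0.05), with a median of −0.37. Of 70 mitochondrial ribosomal protein genes 66 were lower in mean and 30 separated, with a median of −0.43. Of 35 complex I genes 31 were lower in mean and 15 separated, with a median of −0.32, and of 34 genes of complexes III and IV and ATP synthase 30 and 15, with a median of −0.17. Mrpl41, of the large mitochondrial ribosomal subunit, was 7.58, 7.46 and 7.63 in PS hearts and 8.83, 8.80 and 8.19 in MCT hearts, a difference of −1.05 (adjusted p = 0.082). Rps12, a small-subunit ribosomal protein gene, differed by −0.96 and the complex I gene Ndufb2 by −0.87.

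MCT 3 was the exception among the vehicle hearts in these lists. For cytosolic ribosomal protein genes, the median relative to the MCT mean was −0.33, −0.42 and −0.39 for PS 1, PS 2 and PS 3, against 0.20, 0.11 and −0.29 for MCT 1, MCT 2 and MCT 3. For mitochondrial ribosomal protein genes MCT 3 was again at −0.29, beside 0.19 and 0.10 in the other MCT hearts. MCT 3 lay near the PS hearts, and without it the cytosolic median was −0.51. The atrial light chain genes Myl7 and Myl4 were highest in MCT 3, at 8.53 and 9.62, and next in PS 3, at 6.80 and 9.18; their part in these values was not tested. For proteasome genes, of which 26 of 30 were lower in mean with a median difference of −0.24, the values were −0.125, −0.237 and −0.276 for PS 1, PS 2 and PS 3, against 0.162, 0.035 and −0.16 for MCT 1, MCT 2 and MCT 3, so that MCT 3 lay within the PS range. Splicing factors mostly had a higher PS mean, with 21 of 29 higher and a median of 0.25. All PS hearts were above all MCT hearts for 14 of them (background 18.1%) and below for 4 (background 10.1%). The spliceosome subunit gene Sf3b1 differed by 0.55, while the Sm ring genes Snrpg (−0.79) and Snrpd1 (−0.53) were lower in every PS heart.

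**Figure D4:**
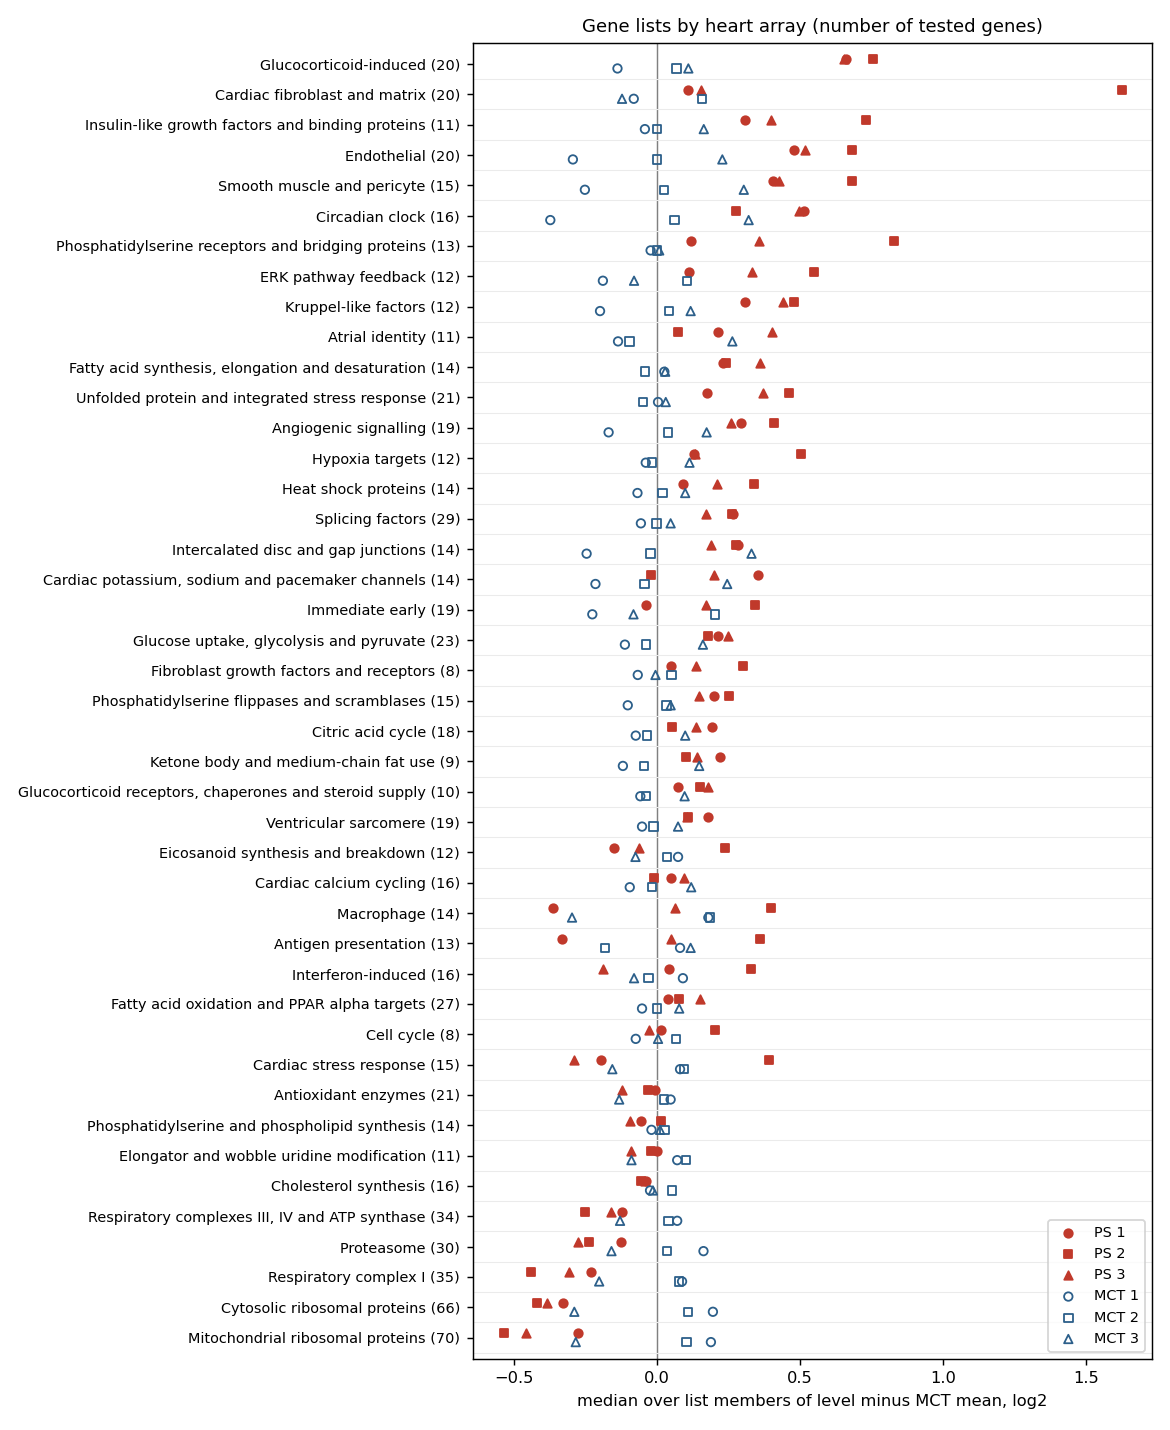
Median over the tested members of each gene list (number in brackets) of the level minus the MCT mean (log2, horizontal axis), for each heart array, with PS as filled and MCT as open symbols. The 3 PS hearts lie together above the MCT hearts for glucocorticoid-induced genes, PS 2 alone is far right for fibroblast and matrix genes, and MCT 3 lies next to the PS hearts for ribosomal protein genes.

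Genes that handle phosphatidylserine itself had no calls in limma. An unadjusted p under 0.05 held for 4 of 14 synthesis, 5 of 15 flippase and scramblase and 6 of 13 receptor and bridging genes. Over all genes it held for 2621 of 11151. Of the genes of phosphatidylserine and phospholipid synthesis 8 had a lower PS mean, with a median of −0.07. The synthase genes Ptdss1 and Ptdss2, which make phosphatidylserine, differed by −0.19 (95% interval −0.49 to 0.11) and −0.31 (−0.66 to 0.04), and Pisd, which converts it to phosphatidylethanolamine, by −0.32. Crls1, the cardiolipin synthase, was −0.73 and the choline kinase gene Chka 0.86, each separated between the groups. Of the flippase and scramblase genes 11 had a higher PS mean and 5 were separated (background 18.1%), with a median of 0.15. The scramblase gene Ano6 was 8.05, 8.60 and 8.21 in PS hearts and 7.47, 7.67 and 7.64 in MCT hearts, a difference of 0.69 (adjusted p = 0.119). Of the receptor and bridging genes 12 had a higher PS mean, and the median of 0.42 was 0.28 without PS 2. The receptor kinase gene Axl, which binds phosphatidylserine through Gas6, was 8.66, 9.44 and 8.96 in PS hearts and 8.13, 8.28 and 7.97 in MCT hearts, a difference of 0.89 (adjusted p = 0.119). Gas6 (0.42) and the receptor gene Mertk (0.50) were also higher in every PS heart than in any MCT heart, for Mertk narrowly, with 6.02 in PS 1 and 5.94 in MCT 2.

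Elongator and its tRNA-modifying partners, the pathway affected in FD, showed no common direction. Of 11 tested genes 4 had a higher PS mean and 7 a lower, with a median of −0.08. All PS hearts were above all MCT hearts for 3 (background 18.1%) and below for 1 (background 10.1%). The subunit genes Elp2 and Elp3 differed by 0.39 and 0.16, and Dph3, which also serves diphthamide synthesis, by −0.60. Receptors and effectors of the autonomic nerves differed little, with a median of 0.17 over 6 tested genes, and markers of nerve fibres were mostly too low to test, with 3 of 13 measured genes above the filter.

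Fuel genes likewise gave no calls in limma. An unadjusted p under 0.05 held for 3 of 27 fatty acid oxidation, 4 of 23 glycolysis and 6 of 14 fatty acid synthesis genes. Over all genes it held for 2621 of 11151. Of 27 tested genes of fatty acid oxidation 16 had a higher PS mean, with a median of 0.05, and −0.04 after centring. Ppara, the nuclear receptor that drives this programme, was 9.53, 9.46 and 9.70 in PS hearts and 8.47, 8.78 and 9.28 in MCT hearts, a separated difference of 0.72 (adjusted p = 0.134), and its coactivator gene Ppargc1a was at 0.61. Genes that use ketone bodies and medium-chain fat had a median of 0.14 over 9 tested. Glycolysis and glucose uptake genes had 18 of 23 with a higher PS mean and a median of 0.19, with the glucose transporter gene Slc2a1 at 0.65. Fatty acid synthesis and desaturation genes had 12 of 14 higher in mean and 7 separated (background 18.1%). Scd2 was at 0.78 and Fads2 at 0.62, with a list median of 0.34, and the 16 cholesterol synthesis genes had a median of −0.11.

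Of stress and immune genes, the unfolded protein response list had 17 of 21 with a higher PS mean and 9 separated (background 18.1%). Its median was 0.32. Herpud1, of the degradation machinery of the endoplasmic reticulum, was 10.60, 10.54 and 10.71 in PS hearts and 9.42, 9.74 and 10.10 in MCT hearts, a difference of 0.86 (adjusted p = 0.114), and Chac1, a glutathione-degrading enzyme gene, differed by 0.70. Antioxidant enzyme genes were mixed, with Gpx4, which reduces lipid peroxides, at −0.66 and the extracellular superoxide dismutase gene Sod3 at 0.68. Macrophage genes were split 7 to 7, with Lyve1, shared by lymphatic endothelium and resident macrophages, at 1.27 (adjusted p = 0.0757) and the signalling adaptor gene Tyrobp at −0.997. Interferon-induced genes had a median of 0.06 and antigen presentation genes 0.07, which turned to −0.04 and −0.03 after centring.

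The PS effect was set against that in cerebrum, the other tissue of the series, in 1 limma model of all 12 arrays. The effect differed between the tissues for 194 of 12731 clusters (1.52%), but for 0 with tissue and replicate number as a block (2304 at an unadjusted p under 0.05), and for 54 without cerebrum PS 2, an alternative chosen after seeing the data. Fkbp5 differed by 2.46 in heart and 0.39 in cerebrum (adjusted p of the difference 0.0191). Its levels were 7.38, 6.37 and 7.51 in PS cerebra and 6.55, 6.83 and 6.71 in MCT cerebra. PS 1 and PS 3 were above all MCT cerebra and PS 2, the array with the MCT sex-linked pattern, was below them. Without PS 2 the cerebrum difference of Fkbp5 was 0.75 and the adjusted p of the difference between tissues 0.0291. Among the glucocorticoid-induced genes named above, only Fkbp5 had PS 2 below the MCT cerebra. For the others PS 2 was above them all, as for Zbtb16 (8.62, against 7.42 to 7.75) and Cdkn1a (9.07, against 7.54 to 7.81). These other genes had a higher PS mean in cerebrum as well as Fkbp5, by 0.10 for Ddit4 to 2.47 for Lcn2. Zbtb16 was at 1.16 there, Cdkn1a at 1.31 and Per1 at 0.55. None of those tested passed for a difference between the tissues (adjusted p = 0.0841 to 0.705). Igfbp3 was at 1.55 and 0.13 (0.0125), Baiap2 at 1.49 and 0.07 (0.0125), Map3k6 at 1.45 and 0.38 (0.0212), and B3galt2 at −1.40 and 0.06 (0.0116) in heart and cerebrum. Mamdc2 ran in opposite directions, at 0.82 and −0.35 (adjusted p = 0.0116). Its cerebrum means were 4.96 with PS and 5.31 with MCT, around the low-value filter of 5.227 for both tissues. For Tsc22d3, at 0.84 and 0.37, the difference did not pass (adjusted p = 0.151), nor for Hsd11b1 (0.242), Ifi207 (0.0845) and Noct (0.0552). Without cerebrum PS 2, Igfbp3, Baiap2, Map3k6, B3galt2 and Mamdc2 still passed (adjusted p = 0.0291 to 0.0441), and Ifi207 passed as well (0.0391). Map3k6 and Ifi207 averaged below 5.227 in PS and in MCT cerebrum. The heart values enter both the calls and this test, so the genes were in part chosen by it. The count was 1629 without heart MCT 3 and 58, 68, 76 and 89 without heart PS 2, PS 3, MCT 1 and MCT 2.

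**Figure D5:**
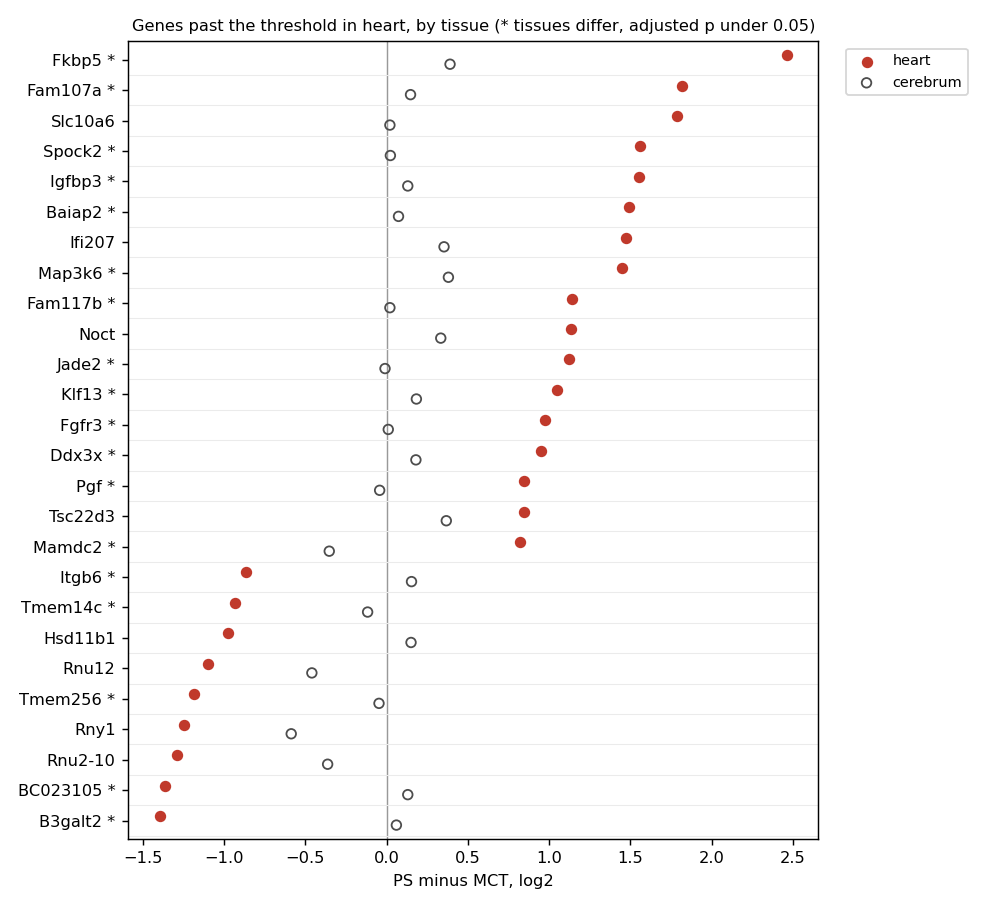
PS minus MCT difference (log2, horizontal axis) in heart (filled) and cerebrum (open) for the genes past the threshold in heart outside Xist and the Y chromosome; an asterisk marks an adjusted p under 0.05 for the difference between tissues. Fkbp5 is at 2.46 in heart and 0.39 in cerebrum, or 0.75 without cerebrum PS 2.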

How the data were processed

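Heart RNA from an RNeasy Plus Mini kit was labelled with an Affymetrix whole-transcript kit, per the labels' protocols. Per the submitters' processing notes, the authors used Affymetrix Expression Console. Not given in the sources used here are its version, how background was corrected and probes summarised, and the build. The authors' deposited values were read as log2 intensity, since they reach 13.11, above the natural log of a 16-bit maximum (11.09), and were used without further normalization. Of 35556 transcript clusters, 21218 had 1 gene symbol in GEO's platform annotation, 1881 had several and 12457 were not listed; identifiers matched the RefSeq gene table for 21185. A change shared by all transcripts would not be visible in arrays with such similar medians.

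Groups were taken from the labels. limma 3.58.1 (lmFit, eBayes) in R 4.3.3 tested PS minus MCT for clusters whose mean over the 6 hearts reached the 40th percentile (4.935), with Benjamini-Hochberg adjustment and a threshold of 0.05. The difference from cerebrum was an interaction over 12 arrays, with a filter at 5.227. Gene lists (53 lists, 1047 genes, 950 measured, 1 cluster per gene, chosen by highest mean) were described by counts and medians, with no test of a list. The comparison and the lists were chosen with earlier results of these data known. Correlations of deviations between arrays of equal replicate number were −0.005, 0.09 and 0.147, and those of unequal number ran from −0.174 to 0.045. The arrays were treated as unpaired, and so few values cannot settle whether they are. p-values measure the spread between these arrays, since separate animals are not stated.

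Named were all genes past the threshold except gene models and small RNAs, further separated genes by lowest p up to 20 in each direction, up to 6 members of each list by lowest p, the sex-linked partners and markers of other tissues. Adipoq, Angptl4, Aplnr, BC023105, Cldn5, Lcn2, Mt1, Myl2, Myl4, Myl7, Ndufb2, Nr3c1, Nr3c2, Postn, Rnu12, Rnu2-10, Rny1, Rps12, Sgk1 and Snap25 were named after their values were seen. On simulated data for this comparison (12736 clusters), changes of 0.5, 1 and 2 were recovered for 11.9%, 68.7% and 95.5%, with 4.88% false calls. The simulated noise was independent between clusters, so it held no deviation that many clusters of an array share. In the real hearts, leaving out 1 array gave 4 to 3416 calls. The simulated rates therefore cannot be taken as the recovery or the false calls of the real comparison. Alternatives covered scaling, filters, variance models, array weights, blocks, the set of clusters tested, and leaving out each array. RefSeq promoter windows matched by symbol; protein sequences were not used here.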

Additional observations from a re-analysis of the deposited data

Results flagged for a closer look

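For 26 genes described above, the PS effect in heart differed from that in cerebrum in limma's test of the difference between the tissues (adjusted p under 0.05). The values here are the heart difference minus the cerebrum difference on the log2 scale, so a positive one means a higher PS effect in heart. It was 2.07 for Fkbp5, 1.67 for Fam107a, 1.07 for Map3k6 and 0.86 for Klf13. Among growth factor and matrix genes, it was 1.42 for Igfbp3, 1.53 for Spock2, 1.17 for Mamdc2, 0.97 for Fgfr3 and 0.89 for Pgf. For other genes it was 1.42 for Baiap2, 1.58 for Rasgef1b, 1.26 for Axl, 1.12 for Fam117b, 1.13 for Jade2, 0.97 for Notch3, 0.77 for Ddx3x and 0.69 for Sf3b1. Another Ddx3x cluster, at 0.51, did not pass (adjusted p = 0.155). The value was negative for B3galt2 (−1.46), BC023105 (−1.49), Tmem256 (−1.14), Itgb6 (−1.02), Cox19 (−0.90), Tmem14c (−0.81), Arhgap32 (−0.98), Naa20 (−0.85) and Lage3 (−0.87). The Naa20 value is from a different cluster than the heart adjusted p given above. That other cluster was at −0.89 (adjusted p = 0.0156). Axl, Rasgef1b, Notch3, Sf3b1, Cox19, Arhgap32, Naa20 and Lage3 differed between the tissues without passing the threshold within heart, where Axl was at 0.89 and Rasgef1b at 1.30, against −0.37 and −0.28 in cerebrum. BC023105 averaged 3.65 in PS cerebrum and 3.52 in MCT cerebrum, below the filter of 5.227. Also below it in PS and MCT cerebrum were Itgb6 (3.62 and 3.47), Map3k6 (4.93 and 4.55), Pgf (4.61 and 4.65) and Notch3 (5.19 and 5.15). Mamdc2 averaged 4.96 in PS cerebrum and 5.31 in MCT cerebrum. Such low cerebrum levels make these differences between tissues approximate. With a block by tissue and replicate number no gene passed, as given below. Without cerebrum PS 2, the array with the sex-linked pattern of the MCT arrays, 15 of the 26 genes passed. Axl, Notch3, Sf3b1, Cox19, Arhgap32, Naa20, Lage3, Ddx3x, Klf13, Pgf and BC023105 then did not pass, with adjusted p from 0.0661 to 0.117.

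Transcript clusters with several gene symbols or none in the annotation were not part of the comparison. Of 8604 such clusters tested apart, 1 passed (0.0116%), and it was lower with PS.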

How the results depend on the processing

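In limma, the 42 calls (20 higher, 22 lower) were 44 after quantile normalization and after centring on array medians, and 42 without the filter, with it at percentile 20 and with robust variances. The other counts were as follows. A filter at percentile 60 left 13 higher. Array weights, which gave MCT 3 the least weight at 0.234, called 4412 (2220 higher, 2192 lower), and a fit of all 12 arrays 1722 (938 and 784). One cluster per gene left 11 lower, all clusters with or without a symbol 17 (8 and 9), and leaving out small RNAs 27 (8 lower); a threshold of 0.1 gave 106 (65 and 41). Leaving out 1 array gave 4 to 3416 calls, 2 to 1681 higher and 2 to 1735 lower. Without PS 3 and MCT 3 together, chosen after seeing the data, there were 1176 (445 and 731). With a replicate block, though pairing by number is not established, 88 passed (53 and 35). For 2 of the 3 PS arrays and 2 of the 3 MCT arrays the highest correlation was with their own number. The difference from cerebrum passed for 194 clusters, for 54 without cerebrum PS 2 (chosen after seeing the data), for 58 to 1629 without 1 heart array, and for 0 with a replicate block (2304 at an unadjusted p under 0.05). Genes far from the threshold turned. Nr3c2 was −0.02 after centring and −0.118 to 0.322 without 1 array, Nr3c1 was −0.123 to 0.047 without 1 array and 0.125 without PS 3 and MCT 3, and array weights turned Myl7 to 0.22, Myl4 to 0.192 and Upk1b to −0.16. Itga2b was −0.057 after centring and −0.005 to 0.11 without 1 array, and Myl4 −1 to 0.153. The cause was not tested.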

Other observations

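Genes of growth signalling and of other cell types, not described above, held no calls in limma. Targets that feed back on ERK signalling had a higher PS mean in 11 of 12, with the phosphatase gene Dusp7 at 0.67 and a median of 0.40, against 0.07 over all genes. Only 2 of the 12 had all PS hearts above all MCT hearts, near the background of 18.1%. Dusp7, 1 of these 2, was 10.16, 10.01 and 10.23 in PS hearts and 9.13, 9.52 and 9.75 in MCT hearts. Immediate early genes had a median of 0.20 over 19, with Myc, a growth regulator, at 0.81 and the antiproliferative gene Btg2 at −0.55. Hypoxia targets had a median of 0.26 over 12 and heat shock proteins 0.25 over 14, where the chaperone gene Dnaja1 was at 0.64 and the mitochondrial chaperonin gene Hspe1 at −0.69. Citric acid cycle genes had a median of 0.15, potassium, sodium and pacemaker channels 0.20, atrial genes 0.35 (0.11 without PS 2), eicosanoid genes 0.08 and cell cycle genes 0.03.

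Markers of other cell types that could be carried along were low or uneven. Of 13 measured T cell, B cell and granulocyte genes 6 were tested, with a median of −0.53, and the B cell gene Cd79b was 5.18, 5.87 and 5.17 in PS hearts and 6.42, 6.47 and 5.81 in MCT hearts. Red cell and platelet genes were mixed, with a median of −0.13 over 5. The platelet chemokine gene Pf4 was at −0.72, with all PS hearts below all MCT hearts, Ppbp at −1.07 with overlapping groups, the platelet integrin gene Itga2b at 0.04 and the red cell anion exchanger gene Slc4a1 at 0.29. Adipocyte genes had a median of 0.26 over 7, skeletal muscle genes −0.26 over 7 and mesothelial genes 0.25 over 6. None of these genes passed an adjusted p of 0.05.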
